A study of Mus musculus with 2744 samples.

Results

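The 84 genes described here carry the symbols of the proteins of the cytosolic ribosome, the particle that translates messenger RNA in the cytoplasm. They are the rows of the count tables whose mouse symbol has the form Rpl or Rps followed by a number, or is Rplp0, Rplp1, Rplp2 or Rpsa, with symbols marked as pseudogenes (a -ps ending) left out. GENCODE M21 annotates 83 of them as protein coding and 1, Rps4l, as a transcribed processed pseudogene. They make up 0.35% of the 23968 genes in the tables. Of the 84, 51 belong to the large subunit (60S, Rpl symbols) and 33 to the small subunit (40S, Rps symbols). Copies number 7 and carry the symbol of another ribosomal protein gene with an l suffix: Rpl3l, Rpl7l1, Rpl10l, Rpl22l1, Rpl39l, Rps4l and Rps27l. The other members are called core members below. All 84 had enough reads to be tested.

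A ribosome holds a single copy of nearly every one of these proteins, and cells make them in matched amounts. The messenger RNAs are short, very abundant and long-lived, and most begin with a C followed by a run of pyrimidines, the terminal oligopyrimidine (TOP) tract, through which mTORC1 and Larp1 adjust their translation. Dividing stem cells spend much of their synthesis on new ribosomes, while a neuron that has left the cell cycle assembles fewer. Copies such as Rpl10l and Rpl39l are known from the male germ line, and Rpl3l from muscle.

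Embryoid bodies of mouse embryonic stem cells were taken along a motor neuron differentiation, and single cells from Days 2, 3, 4, 5 and 6 were sorted into plates. The study had a main and a pilot experiment, described by the submitters as biological replicates, and poly(A) RNA was sequenced by a modified CEL-seq protocol, which barcodes each cell's RNA, amplifies it and reads it near its 3' end, here with no molecular identifiers. Besides Day 6 eGFP++ and Day 6 eGFP+, the groups were Days 2 to 6 with no eGFP label. The eGFP++ cells filled 3 main plates and 1 pilot plate, and the eGFP+ cells 1 main plate. The labels used here name neither the reporter that gives eGFP nor the sort gates, nor the stem cell line, so a Day 6 sample without an eGFP label is treated as unselected only in the sense that no selection is stated.

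After cells with fewer than 500 detected genes were left out, 2448 of 2744 cells remained, 2062 in the main experiment and 386 in the pilot. Cells are not replicates, so reads were summed by group and experiment into 13 sums of 39 to 422 cells and 16370502 to 100972780 gene reads. Levels are given as CPM, the reads of a gene when the gene reads of a sum are scaled to 1000000. They are not divided by gene length, so no order of transcript abundance follows from them. The 6 pluripotency markers summed to 12 and 32.5 CPM on Day 6 (main and pilot), against 4447 and 3008 CPM on Day 2. The 8 pan-neuronal markers summed to 12237 and 12663 CPM in eGFP++ cells, 1480 CPM in eGFP+ cells, and 4698 and 5112 CPM on Day 6. In a summed sample, fewer cells of a type and less RNA per cell cannot be told apart.

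The start of the transcript shows what many members share outside their proteins. RefSeq promoter windows (build GRCm38.p6) were found for 63 members. A C at the annotated start followed by at least 4 C or T was present in 13 of these (20.6%), against 2.97% of 26962 other genes. The ETS core CCGGAAG, the recognition letters of a family of activating transcription factors, was found on either strand of the window from 250 bases before to 50 bases after the start in 26 members (41.3%), against 9.85% of other genes. Annotated starts can be off by a few bases, which decides whether such a tract is seen. The lines below show 10 bases before the start and the first 20 of the transcript for 5 of the 13 members with a tract, shown as examples from both subunits and the stalk. Capitals mark the tract, from the C at the start to the last C or T.
Rpl15: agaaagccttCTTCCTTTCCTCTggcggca
Rpl35: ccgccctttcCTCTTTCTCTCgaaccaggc
Rplp2: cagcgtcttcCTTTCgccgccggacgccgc
Rps6: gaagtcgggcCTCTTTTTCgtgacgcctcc
Rps18: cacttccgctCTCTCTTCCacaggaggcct
In this build and on the strand of the gene, these windows are chr14:18270967-18270996 (-), chr2:39005112-39005141 (-), chr7:141447641-141447670 (+), chr4:86857348-86857377 (-) and chr17:33955646-33955675 (-), in the order of the lines. Rpl15, Rpl35 and Rplp2 are large subunit genes, and Rps6 encodes the small subunit protein that S6 kinase phosphorylates downstream of mTORC1.

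Ribosomal protein transcripts took about 3 in 10 gene reads at nearly every stage. The share in the main experiment was 29.8%, 33.03%, 36.9%, 30.7% and 29.4% on Days 2 to 6. In the pilot it was 26.7%, 27.8%, 23.3%, 27.9% and 31.9% on the same days. The 95% Wilson interval of a share was at most 0.0234 percentage points to either side, which covers counting error only and is far smaller than the gap between experiments. Day 4 held the highest share of the days in the main experiment and the lowest in the pilot, so the experiments gave no common order of days. The share averaged 30.6 ± 1.76% on Day 6 and 28.2 ± 2.25% on Day 2 (SD, n = 2 experiments), and the experiments lay on opposite sides, 0.98 times the Day 2 share in the main experiment and 1.19 times in the pilot.

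On Day 6 the share was lowest in eGFP++ cells. It was 25.6% in main eGFP++ cells and 13.5% in pilot eGFP++ cells, against 29.4% and 31.9% on Day 6 in the same experiments. Both eGFP++ values were below both Day 6 values, but the main sum was 0.87 times its Day 6 and the pilot sum 0.42 times. The eGFP+ plate had the highest share of all 13 sums, 38.1%. Plates of main eGFP++ cells ranged between 23.8% and 28.7%, and plates of main Day 6 between 28.3% and 30.4%, so these overlap slightly, while the 2 pilot Day 6 plates had 31.4% and 32.2%. The cells of a sum varied around these values: the middle 50% of cells spanned 10.7% to 15.8% in pilot eGFP++ cells, 22.1% to 30.9% in main eGFP++ cells, 26.7% to 37.6% on Day 6 of the pilot and 24.5% to 35.4% on Day 6 of the main experiment.

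**Figure D1:**
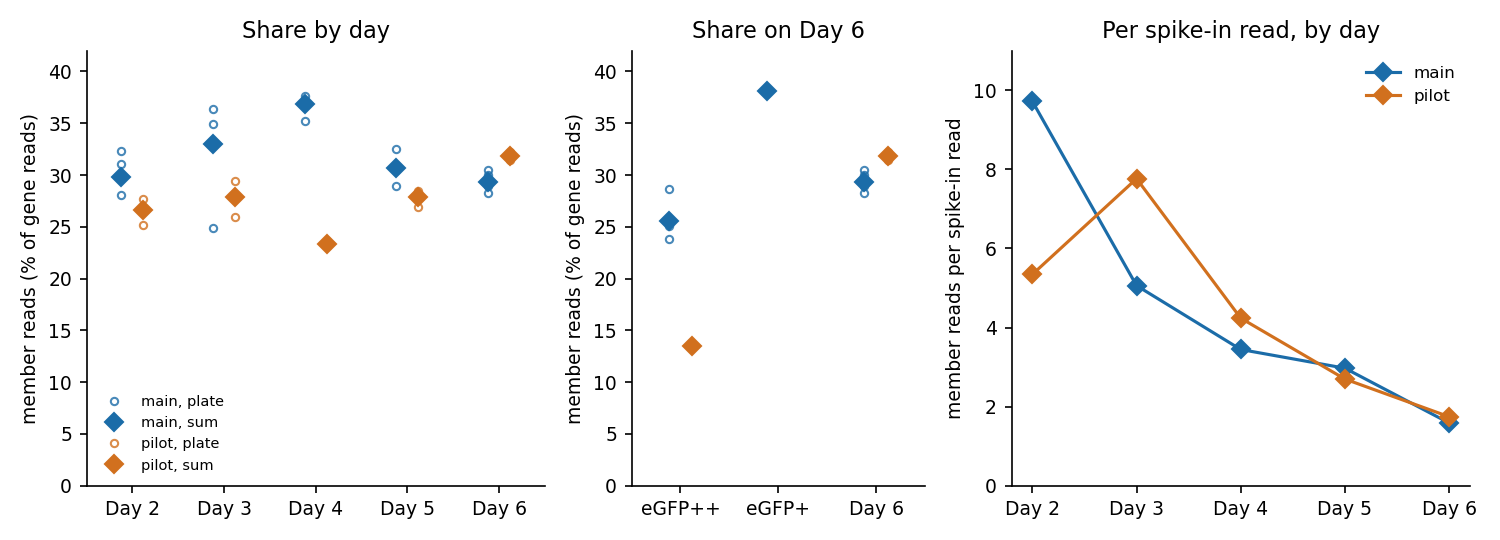
Share of gene reads from the 84 members by day (left) and on Day 6 by eGFP label (middle), with open circles for plates and diamonds for sums, and member reads per spike-in read by day (right), in the main (blue) and pilot (orange) experiments. The eGFP++ sums lie at 25.6% and 13.5%, below the Day 6 sums at 29.4% and 31.9%, and member reads per spike-in read are below 2 on Day 6 in both experiments.

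Set against the reads of the spike-in RNA, a set of standards that are not mouse RNA, the member reads were lower on Day 6 than on Day 2 in both experiments. Member reads per spike-in read were 9.72, 5.06, 3.44, 2.97 and 1.59 on Days 2 to 6 in main cells. Pilot cells gave 5.34, 7.76, 4.24, 2.70 and 1.74. Plates of a day could differ widely, between 1.92 and 9.22 on main Day 3. Both Day 6 sums were below both Day 2 sums. Reads of all genes did the same, at 5.41 and 5.48 per spike-in read on Day 6 against 32.6 and 20.05 on Day 2, so the share stayed near 3 in 10 while the total ran lower. In eGFP++ cells the values were 1.90 in the main experiment and 1.12 in the pilot, against 1.59 and 1.74 on Day 6, which lie on both sides. Main eGFP++ plates ranged between 1.27 and 2.55, and main Day 6 plates between 1.43 and 1.89. With reads scaled by the spike-in total, 77 members fell between Day 2 and Day 6 at an adjusted p under 0.05, and 12.8% of all tested genes fell. Under that scaling the median log2 difference was -2.11 over members and -2.02 over all genes tested, so the members moved about as far as the rest of the transcriptome.

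The subunits kept close to 1 ratio to each other. The reads of 60S members divided by those of 40S members gave values between 1.24 and 1.35 in the 13 sums, with 1.32 ± 0.0438 in eGFP++ cells, 1.26 ± 0.00565 on Day 6 and 1.30 ± 0.0461 on Day 2 (SD, n = 2 each). Reads were also spread over nearly all members in each cell. With every cell thinned to 5000 gene reads, a median of 74 members was detected per cell in main eGFP++ cells and on Day 6 of both experiments. Pilot eGFP++ cells stood apart with 61 after thinning, although 76 members had a read before it. A smaller member share leaves fewer member reads among the 5000, so this count is not separate from the share.

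Members differed by orders of magnitude in the reads assigned to them. Averaged over the 12 sums of the statistical fit, 71 members had more than 1000 CPM, with a median over members of 2592 CPM. Rps3a1, a small subunit protein that contacts initiation factors, averaged 32700 CPM, 12.6 times that median and 11.6% of all member reads. It was followed by Rpl4 with 18085 CPM, a large subunit protein of the exit tunnel, Rpsa with 10329 CPM, also known as the laminin receptor precursor, Rps12 with 9893 CPM and Rpl27a with 9348 CPM. At the other end, 7 members averaged below 20 CPM, namely the copies Rpl10l, Rpl39l and Rpl3l and the core members Rpl30, Rpl34, Rps27 and Rpl26. Of all reads in the tables, 25.4% had been set aside as aligning to more than 1 place. In 68 of 84 members, more than 50% of the 50-base stretches of the coding frame also occur in the transcript of another gene, with a median of 90.3%. These shares were 83.3% in Rpl30, 71.5% in Rpl34, 100% in Rps27 and 87.4% in Rpl26, and 100% in Rps12. Reads lie near the 3' end, and bases outside the coding frame were examined only in Rps4l, which has no annotated frame. These percentages are therefore not shares of reads set aside. The part of shared stretches in the low counts was not tested. Levels of 1 member are therefore compared between groups, and not with other members.

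On Day 6 against Day 2, 1 of 84 members changed, the copy Rps4l, which fell. Over all genes, 134 of 16080 tested were called (0.833%) by edgeR's quasi-likelihood test at an adjusted p under 0.05, so 1 member of 84 is a share near the background. At an unadjusted p under 0.05 the members were Rps4l and Rpl10l, 2 of 84, against 13.7% of all tested genes. DESeq2 called the same pair and 12.7% of all tested genes, so the members had fewer calls than the background by either rule. The 77 members with a mean of at least 20 CPM had a median log2 difference of 0.12 with values between -2.40 for Rps4l and 0.60 for Rpl31, and a median standard error of 0.338. Over all tested genes the median was 0.17. With library sizes taken from the genes that are not members, the medians were -0.07 over the 84 members and 0.01 over all genes, so the members' sign depended on the scaling. Of the 84 members, 16 were lower and 41 higher on Day 6 in both experiments, and 26 had opposite signs. Of the 16080 tested genes, 3961 were lower and 5745 higher in both, and 4228 had opposite signs. Both Day 6 sums lay below both Day 2 sums for 14 members (16.7%, against 19.3% of all tested genes) and above them for 22 members (26.2%, against 28.8%).

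Rps4l gave the clearest pattern of the set. Main cells had 1390, 923, 538, 337 and 288 CPM on Days 2 to 6. Pilot cells had 1401, 950, 547, 512 and 273 CPM on the same days. The summed level was lower at every step in both experiments, and the sums of Days 2, 3 and 4 nearly coincided between experiments. The Day 6 sums were far below the Day 2 sums. Single plates spread more widely, from 229 to 1078 CPM on main Day 3. Pilot plates had 355 and 672 CPM on Day 4 and 276 and 658 CPM on Day 5, so plates of adjacent days overlapped there. The log2 difference was -2.40 ± 0.416 (SE, n = 2 sums a group, adjusted p = 0.0278 by edgeR's quasi-likelihood test), and all 6 Day 6 plates were below all 6 Day 2 plates. The call was lost when any 1 of the 4 sums compared was left out: the adjusted p was 0.0571 without the main Day 2 sum, 0.200 without the pilot Day 2 sum, 0.176 without the main Day 6 sum and 0.220 without the pilot Day 6 sum, with log2 differences between -2.52 and -2.28. Cells with at least 1 read of Rps4l made up 59.3% on Day 6 against 98.6% on Day 2 in the main experiment, and 70.4% against 89.3% in the pilot. The pilot share was 63.2% on Day 4 and 85.3% on Day 5, so it did not fall at every step. In the F-test over Days 2 to 6, 43 of 16080 genes were called (0.267%) and no member, with 1 member, Rps4l, at an unadjusted p under 0.05, against 7.3% of all tested genes. DESeq2 called Rps4l and 5.34% of all tested genes there.

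Rps4x, which encodes the small subunit protein that Rps4l resembles, showed no such difference. It had 2851 and 3373 CPM on Day 6, against 2326 and 3497 CPM on Day 2 (main first in each pair here and below), and the groups overlapped. Its log2 difference was 0.01 ± 0.290 (adjusted p = 0.996, edgeR). Rps4l is a single-exon locus at chr6:148354656-148355598 on the plus strand, while Rps4x lies on the X chromosome at chrX:102184941-102189394 on the minus strand with 7 exons. The longest open frame of the 943-base Rps4l transcript is 789 bases, against 792 in Rps4x, and 79.95% of 783 aligned bases are identical with 0 gaps. Of the 50-base stretches of the Rps4l transcript, 14.9% occur in another gene's transcript, and the others in none. The next lines show the 60-base stretch with the most differences for 3 copies and the genes they copy, to show how copy and gene differ in sequence. Capitals mark bases that differ, and whether reads fell on these stretches was not tested.
Rps4l: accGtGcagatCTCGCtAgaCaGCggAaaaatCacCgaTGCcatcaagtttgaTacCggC
Rps4x: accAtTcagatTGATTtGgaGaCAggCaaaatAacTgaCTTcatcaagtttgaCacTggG
Rpl22l1: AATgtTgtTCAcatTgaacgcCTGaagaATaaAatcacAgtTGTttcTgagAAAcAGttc
Rpl22: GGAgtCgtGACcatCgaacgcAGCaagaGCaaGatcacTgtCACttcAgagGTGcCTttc
Rpl39l: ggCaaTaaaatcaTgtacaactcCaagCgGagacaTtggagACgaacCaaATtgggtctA
Rpl39: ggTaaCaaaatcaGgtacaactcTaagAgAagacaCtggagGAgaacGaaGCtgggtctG
Between Rpl22l1 and Rpl22, 75.5% of 294 aligned bases were identical, with 3 gaps, and the Rpl22 frame has 387 bases. Between Rpl39l and Rpl39, 85.3% of 156 aligned bases were identical with 0 gaps, over the full frame of Rpl39. The sequences are those of GENCODE M21 transcripts on GRCm38.

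In 4 other copies the Day 6 values were also below the Day 2 values in both experiments, and none of these passed the test. As a share of all member reads, the 7 copies gave 0.376% (main) and 0.361% (pilot) on Day 6, against 0.985% and 0.908% on Day 2. That share includes Rps4l, the copy with the most reads on Day 2, so it does not describe the other copies alone. Rps4l averaged 1395 CPM on Day 2 and 280 CPM on Day 6 over the experiments. Rpl39l had 0.540 and 5.90 CPM on Day 6, against 77.2 and 35.9 CPM on Day 2, and a read in 1 of 354 main Day 6 cells against 200 of 361 main Day 2 cells. Rpl10l had 1.22 and 0 CPM on Day 6, against 71.2 and 29.6 CPM on Day 2, where the count of 0 allows up to 0.0467 CPM. For both copies the Day 6 sums were below the Day 2 sums, and every Day 6 plate was below every Day 2 plate. The Day 2 pilot values came from few cells, 10 of 75 for Rpl39l and 4 of 75 for Rpl10l. The fitted differences did not pass the test, at -4.03 ± 2.08 for Rpl39l (adjusted p = 0.418) and -6.82 ± 2.41 for Rpl10l (adjusted p = 0.272, both edgeR). Without the main Day 6 sum they were -2.61 for Rpl39l and -14.6 for Rpl10l, and without the pilot Day 6 sum -7.33 and -5.51. Rpl10l was called by DESeq2, with 1 sum per plate, with cells weighted equally, with only the Day 2 and Day 6 sums and with spike-in library sizes. Rpl39 had 3060 and 2337 CPM on Day 6, against 2655 and 2278 CPM on Day 2, and Rpl10 had 2890 and 3016 CPM against 2425 and 1930 CPM.

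Rps27l, a copy known as a p53 target, had 277 and 337 CPM on Day 6, against 630 and 441 CPM on Day 2, and Rpl7l1 had 96.5 and 65.2 CPM against 140 and 135 CPM. Neither set of sums overlapped, and neither difference passed the test, at -0.81 ± 0.399 for Rps27l (adjusted p = 0.400) and -0.87 ± 0.520 for Rpl7l1 (adjusted p = 0.483, edgeR). That of Rps27l was -0.35 without the main Day 6 sum and -1.41 without the pilot Day 6 sum. Rps27, the gene that Rps27l copies, was counted at no more than 3.97 CPM in any sum, and Rpl3l at no more than 1.65 CPM, which leaves nothing to compare. Rpl7l1 is called a copy of Rpl7 here by its symbol only. Of the 813-base frame of Rpl7, no more than 102 bases aligned with the Rpl7l1 transcript, at 70.6% identity. Rpl7 had 3608 and 3224 CPM on Day 6, against 2930 and 3170 CPM on Day 2.

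**Figure D2:**
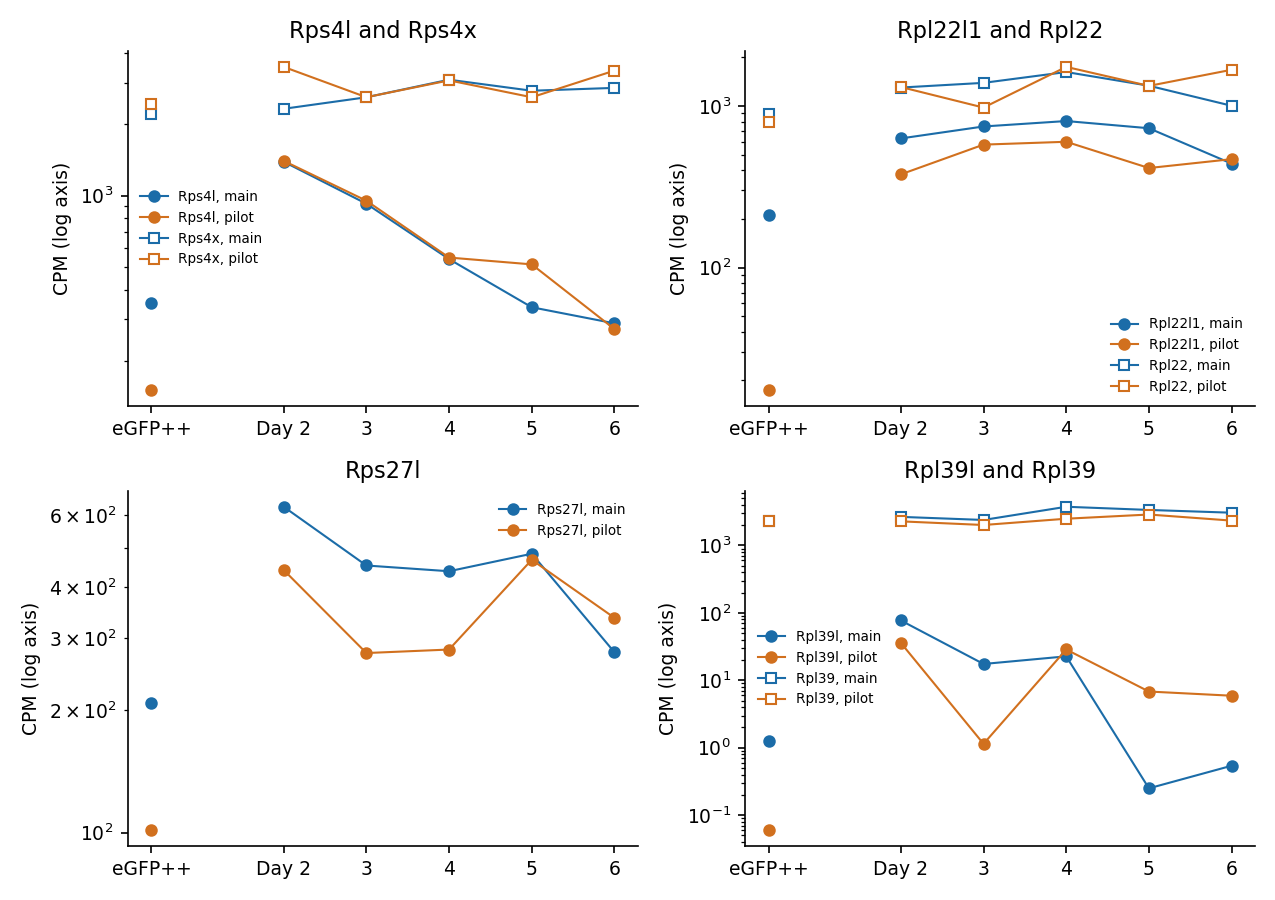
CPM (log axis) of 4 copies (filled circles) and, for 3 of them, the gene they copy (open squares) in eGFP++ cells (left) and on Days 2 to 6, in the main (blue) and pilot (orange) experiments; 1 point per sum. Rps4l decreases to 288 and 273 CPM on Day 6 while Rps4x stays above 2000 CPM, and Rpl22l1 is at 212 and 17.5 CPM in eGFP++ cells.

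No core member passed the test toward higher levels on Day 6. Rpl31, Rps19 and Rpl41 were among the 5 with the smallest p in that direction. Rpl31, a protein at the exit of the large subunit tunnel, had 4239 and 4254 CPM on Day 6, against 3109 and 2345 CPM on Day 2. Its log2 difference was 0.60 ± 0.317 (adjusted p = 0.424, edgeR), and it was 0.98 without the main Day 6 sum and 0.12 without the pilot Day 6 sum. Rps19, whose gene is mutated in human Diamond-Blackfan anaemia, had 3183 and 2638 CPM on Day 6, against 2112 and 1855 CPM on Day 2. In both genes the Day 6 sums were above the Day 2 sums. The log2 differences were 0.46 ± 0.303 for Rps19 and 0.51 ± 0.383 for Rpl41, and that of Rpl41 was -0.16 without the pilot Day 6 sum. With the spike-in reads as library size, these 3 turned negative, between -1.76 and -1.62, under a scaling that moves the median of all genes to -2.02.

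A fit with 1 sum per plate, whose p-values measure the spread between plates, called 7 members for Day 6 against Day 2 and 19.8% of all 15013 tested genes. Of the 7, 6 were lower on Day 6, namely Rpl10l, Rpl39l, Rpl6, Rps2, Rps27l and Rps4l, and 1 was higher. Between adjacent days the sums gave no called member. On Day 3 against Day 2, 8 genes were called in all (0.0498%) and 0 members had an unadjusted p under 0.05, against 3.65% of all tested genes. On Day 4 against Day 3, Day 5 against Day 4 and Day 6 against Day 5, 0.0% of genes were called. There, 0, 0 and 1 members had an unadjusted p under 0.05, against 2.69%, 3.7% and 3.17% of all tested genes, and DESeq2 called 0 members in each step. The experiments gave opposite signs for 45, 32, 55 and 38 members in the 4 steps, in order of days, and for 5308, 5866, 6183 and 5789 of the 16080 tested genes.

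Day 6 eGFP++ cells held lower levels of most members than Day 6 cells. Of the 84, 65 were lower in both experiments, 0 were higher in both and 16 had opposite signs. Of the 16080 tested genes, 4994 were lower in both, 2589 were higher in both and 5657 had opposite signs. Both eGFP++ sums lay below both Day 6 sums for 56 members (66.7%), against 21.8% of all tested genes. At an unadjusted p under 0.05, 31 members were lower and 0 higher, against 4.79% of all tested genes that were lower. None passed after adjustment over all genes, where 5 genes were called in all (0.0311%, edgeR), and DESeq2 called 3.26% of all genes and 1 member, Rpl3l, which was listed at 0 CPM in both eGFP++ sums and at 0 and 1.62 CPM on Day 6. The median log2 difference was -0.73 over the 77 members with at least 20 CPM, -0.69 over those of the 60S subunit and -0.76 over those of the 40S subunit. Over all 84 members it was -0.77, against -0.52 over all tested genes. The median over all genes depended on the fit. It was -0.10 with DESeq2, -0.17 without the experiment term and -0.21 with 1 sum per plate. The member medians in these fits were -0.61, -0.65 and -0.49. With the spike-in reads as library size, the median was -0.22 over the 84 members, against -0.05 over all genes, and 2 members had an unadjusted p under 0.05, against 4.75% of all tested genes.

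The 1 pilot plate of eGFP++ cells carried much of this. Without it the median member difference was -0.50, against -0.57 over all genes, and 7 members had an unadjusted p under 0.05, against 2.76% of all tested genes. Without the main eGFP++ sum the median was -1.10, against -0.57, and 52 members had an unadjusted p under 0.05, against 16.7% of all tested genes. In that fit 4.39% of all genes were called, and 2 members, Rpl10a and Rpl22l1. Pilot eGFP++ cells had the fewest members detected after thinning, a count that depends on the member share itself. They also had a median of 2271 detected genes per cell, against 3361 on Day 6 of the pilot. In the main experiment these medians were 2644 in eGFP++ cells and 2310 on Day 6. The part of detected genes in the result was not tested. At the level of plates, 23 members (27.4%) were lower on all 4 eGFP++ plates than on all 6 Day 6 plates, against 2.47% of all tested genes, and 0 members were higher on all.

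**Figure D3:**
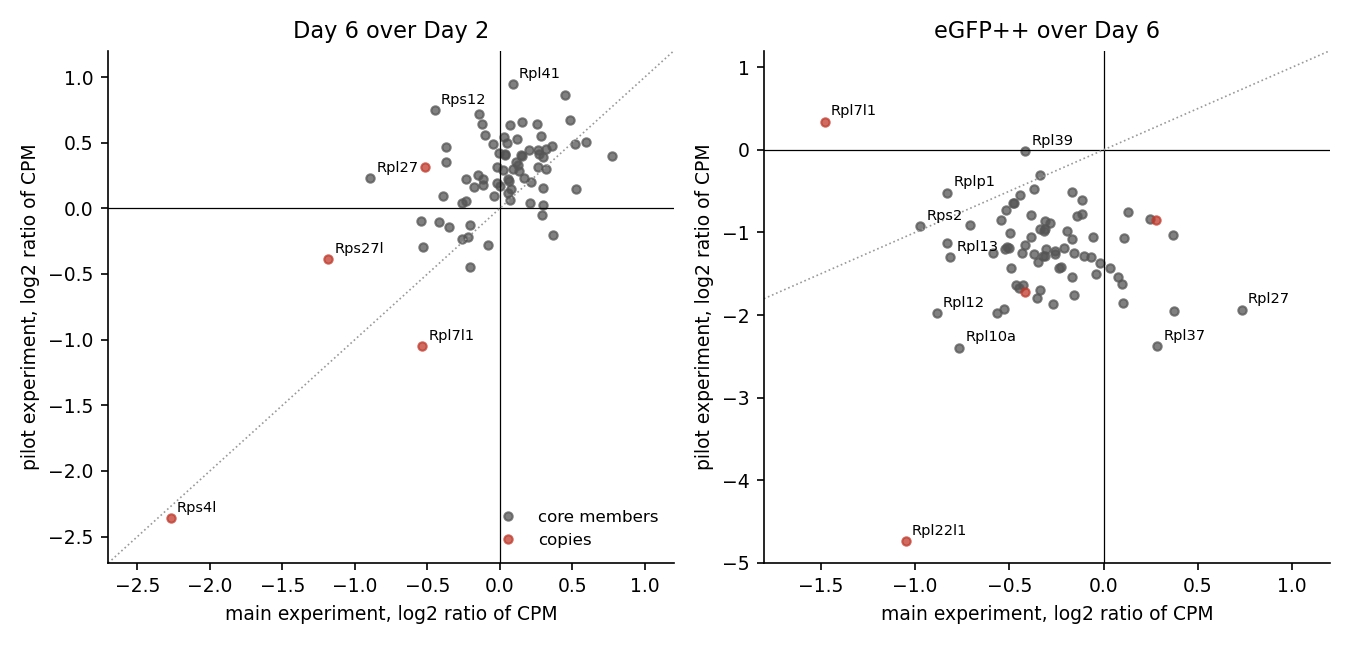
Log2 ratios of CPM for the members with a mean of at least 20 CPM, main experiment on the x axis and pilot on the y axis, for Day 6 over Day 2 (left) and eGFP++ over Day 6 (right); grey points are core members, red points copies, and the dotted line marks equal ratios. For Day 6 over Day 2 most points sit near 0 and Rps4l lies apart near -2.3 in both experiments, while for eGFP++ over Day 6 nearly all points lie below 0 in the pilot, with Rpl22l1 lowest.

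The members with the smallest p were Rpl13, Rpl12 and Rpl10a, all of the large subunit. Rpl13 had 2504 CPM in main and 1608 CPM in pilot eGFP++ cells, against 4401 and 3963 CPM on Day 6. Rpl12, which sits at the base of the stalk, had 926 and 483 CPM in eGFP++ cells, against 1708 and 1898 CPM on Day 6. Rpl10a, which lies on the L1 stalk where spent transfer RNA leaves, had 1049 and 411 CPM, against 1783 and 2163 CPM. For these 3 genes the eGFP++ sums were well below the Day 6 sums in both experiments. Their log2 differences were -1.04 ± 0.261 for Rpl13 (adjusted p = 0.341), -1.43 ± 0.364 for Rpl12 (adjusted p = 0.347) and -1.50 ± 0.409 for Rpl10a (adjusted p = 0.428, all edgeR), and each was called with 1 sum per plate. That of Rpl10a was -0.97 without the pilot eGFP++ sum. That fit called 10 members, all lower in eGFP++ cells, and 1.57% of all genes. Among the 10 were also Rpl22l1, Rplp1, Rps2 and Rps12.

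The stalk proteins, which draw elongation factors to the ribosome, were lower in eGFP++ cells as well. Rplp0 had 3051 and 1779 CPM in eGFP++ cells, against 4103 and 5514 CPM on Day 6. Rplp1 had 1780 and 2132 CPM in eGFP++ cells, against 3160 and 3050 CPM on Day 6, and Rplp2 had 2167 and 1052 CPM against 2929 and 2502 CPM. No sum of the groups overlapped for these genes, and of the 3 genes only Rplp1 differed more in the main experiment than in the pilot. The log2 differences were -1.01 ± 0.339, -0.64 ± 0.270 and -0.85 ± 0.386 for Rplp0, Rplp1 and Rplp2, with adjusted p between 0.673 and 0.743 (edgeR). Rpsa, a small subunit protein, had 6394 and 4588 CPM in eGFP++ cells, against 8999 and 12328 CPM on Day 6, a log2 difference of -0.95 ± 0.290 (adjusted p = 0.559, edgeR). Without the pilot Day 6 sum the differences were -0.57 for Rplp0, -0.42 for Rplp2 and -0.57 for Rpsa.

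Rpl22l1 had the lowest fitted value among the better-counted members. It was counted at 212 CPM in main and 17.5 CPM in pilot eGFP++ cells, against 440 and 469 CPM on Day 6, and between 377 and 807 CPM on Days 2 to 5. The eGFP++ sums were the lowest of all sums, and the pilot sum was far below the main one. The log2 difference was -2.42 ± 0.738 (adjusted p = 0.558, edgeR), -1.38 without the pilot eGFP++ sum and -4.49 without the main one. Rpl22, the gene it copies, had 895 and 795 CPM in eGFP++ cells, against 1004 and 1677 CPM on Day 6, a difference of -0.66 ± 0.345 (adjusted p = 0.743, edgeR). Rpl22l1 lies at chr3:28805436-28807424 on the plus strand, and 81.9% of the 50-base stretches of its coding frame occur in another gene's transcript.

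The eGFP+ plate, which has no replicate, held more Rps3a1 and Rpl4 than any other sum, at 63884 and 28732 CPM, against 37217 and 16694 CPM on main Day 6. The 5 most abundant members of the sum made up 34.2% of its member reads, against 28.1% on main Day 6. Rpl13 with 3573 CPM and Rplp1 with 2183 CPM were lower there than on main Day 6, at 4401 and 3160 CPM, so its high share did not hold for every member. Its cells had a median of 1524 detected genes, against 2310 on main Day 6.

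Within Day 6, cells with more neuronal RNA had a smaller member share. Spearman's rho between a cell's member share and its share of reads from the 8 pan-neuronal markers was -0.46 over 283 main and -0.30 over 39 pilot eGFP++ cells, -0.49 over 83 eGFP+ cells, and -0.62 over 354 main and -0.45 over 71 pilot Day 6 cells. On Day 5 it was -0.42 over 332 main and -0.21 over 75 pilot cells, and on Days 2 to 4 it lay between -0.25 and 0.11. With the 6 neural progenitor markers rho was -0.09 (main) and -0.07 (pilot) in eGFP++ cells, 0.35 in eGFP+ cells, and 0.38 and 0.34 on Day 6. Both shares of a cell have the same denominator, cells of a plate share library preparation, and the number of detected genes also had a negative rho with the member share. It was -0.49 (main) and -0.10 (pilot) in eGFP++ cells and -0.31 and -0.34 on Day 6, and its part in the result was not tested. These are descriptions over cells and not tests. The 8 dividing-cell markers, which were lower in eGFP++ cells (432 and 287 CPM) than on Day 6 (1600 and 2358 CPM), had a rho near 0 with the member share among Day 6 cells, at 0.13 and -0.05.

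**Figure D4:**
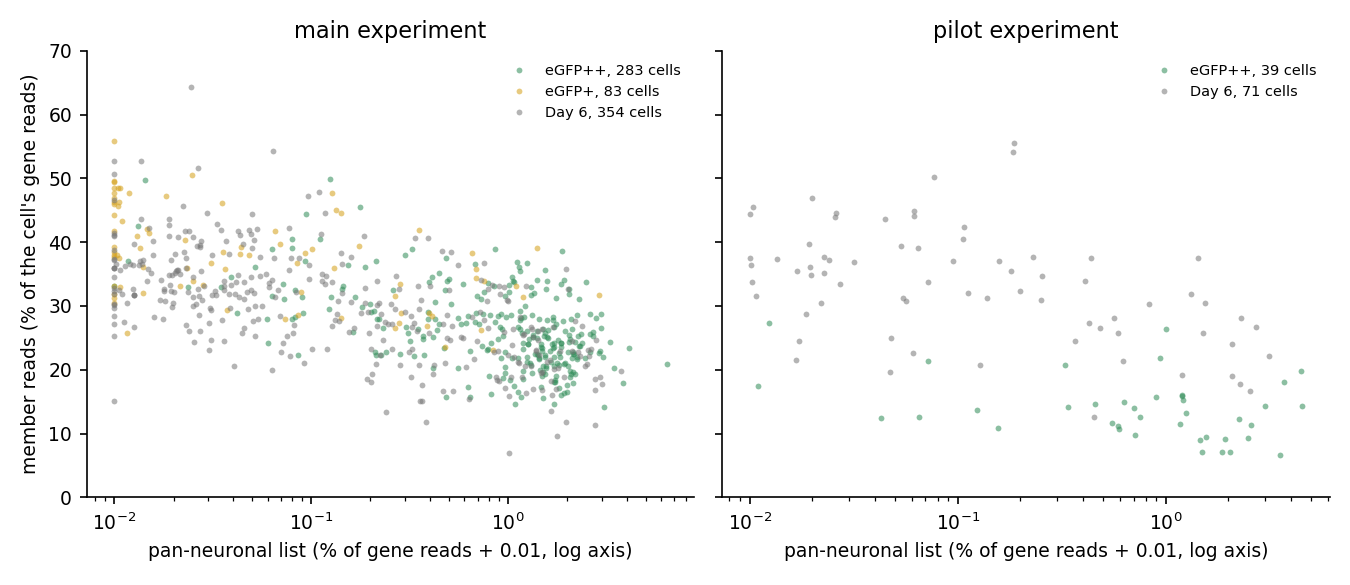
Each point is a Day 6 cell, with its share of gene reads from the 8 pan-neuronal markers plus 0.01 on the x axis (log axis) and from the 84 members on the y axis, in the main (left) and pilot (right) experiments. Member shares are lower toward the right, with rho -0.62 in main and -0.45 in pilot Day 6 cells (grey), and pilot eGFP++ cells (green) have a median of 13.3%, against 33.7% in pilot Day 6 cells.

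Most genes that build ribosomes had lower values on Day 6 than on Day 2, in both experiments. Of 38 ribosome biogenesis genes tested, 37 were lower on Day 6 than on Day 2 in both experiments, against 24.6% of all tested genes. At an unadjusted p under 0.05, 23 were lower, against 5.52% of all tested genes, and 1, Ncl, passed after adjustment over all genes. The median log2 difference was -1.62, against 0.17 over all tested genes and 0.12 over the members with at least 20 CPM. Ncl, which encodes nucleolin, fell to 564 and 875 CPM on Day 6, against 2286 and 2975 CPM on Day 2, a log2 difference of -1.98 ± 0.306 (adjusted p = 0.0181, edgeR). The call was lost when any 1 of the 4 sums was left out, with adjusted p between 0.0640 and 0.144, and without the experiment term, with 0.0827. Npm1, the nucleolar chaperone nucleophosmin, had 2311 and 1962 CPM on Day 6, against 5245 and 4617 CPM on Day 2, a difference of -1.30 ± 0.265 (adjusted p = 0.0533, edgeR). In eGFP++ cells against Day 6, the biogenesis list had a median of -0.59 against -0.52 over all genes. At an unadjusted p under 0.05, 6 of 38 were lower and 1 higher. Of all tested genes, 4.79% were lower at that p, and 1011 of 16080 passed it in either direction.

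The RNA polymerase I machinery, which transcribes ribosomal RNA, had a median of -0.90 over 17 genes on Day 6 against Day 2, with 0 called. In both experiments 11 were lower, against 24.6% of all tested genes. At an unadjusted p under 0.05, 1 was lower, against 5.52% of all tested genes. That gene was Rrn3, an initiation factor, with 145 and 115 CPM on Day 6, against 257 and 221 CPM on Day 2. The 29 translation initiation factors had a median of -0.41 and the 7 elongation factors -0.12, with 0 called in either list. Over the 76 mitochondrial ribosomal proteins, which serve the separate ribosome of mitochondria, the median was -0.23 with 0 called. Of the 76, 30 were lower and 21 higher in both experiments, against 3961 and 5745 of the 16080 tested genes. Mrpl15 had 182 and 165 CPM on Day 6, against 451 and 520 CPM on Day 2 (adjusted p = 0.0984, edgeR), while Mrpl14 had 183 and 203 CPM against 106 and 37.4 CPM (adjusted p = 0.207, edgeR). In eGFP++ cells against Day 6, the medians of these 4 lists were -0.54, -0.26, -0.26 and -0.41, with 0 called.

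Genes known to control ribosomal protein mRNAs gave no call. Over 13 genes of mTORC1 and TOP regulation the median was 0.20 on Day 6 against Day 2 and -0.44 in eGFP++ cells against Day 6. Eif4ebp1, a repressor of cap-dependent initiation and a target of mTORC1, had 27.8 and 14.2 CPM in eGFP++ cells, 86.5 and 104.8 CPM on Day 6, and 437 and 291 CPM on Day 2. The sums did not overlap in either comparison, with log2 differences of -2.19 ± 0.461 for eGFP++ against Day 6 (adjusted p = 0.198) and -1.98 ± 0.456 for Day 6 against Day 2 (adjusted p = 0.0882, edgeR). Larp1, which binds the TOP tract, had 74.3 and 76.1 CPM on Day 6, against 178 and 215 CPM on Day 2 (adjusted p = 0.172, edgeR). The 8 Myc family genes had a median of 1.03 on Day 6 against Day 2 with 0 called. They pool Myc, Mycn, Mycl and Max with Mxd1, Mxd3, Mxd4 and Mnt, so this median does not describe Myc genes alone. In both experiments 2 were lower and 4 higher, against 3961 and 5745 of the 16080 tested genes. At an unadjusted p under 0.05, 1 was higher and 1 lower, against 13.7% of all tested genes. Their smallest p was for Mycl, with 74 and 172 CPM on Day 6, against 26.8 and 28.8 CPM on Day 2 (adjusted p = 0.190, edgeR). Next by p was Max, with 45.6 and 26.5 CPM on Day 6, against 64.9 and 121.7 CPM on Day 2. The 20 other TOP mRNA genes had a median of -0.14, and the 14 genes of ribosome quality control and stress -0.25, again with 0 called. In the stress list, Cdkn1a, the p21 cell cycle inhibitor, had 306 and 57 CPM on Day 6, against 73.7 and 17.1 CPM on Day 2 (adjusted p = 0.215, edgeR).

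**Figure D5:**
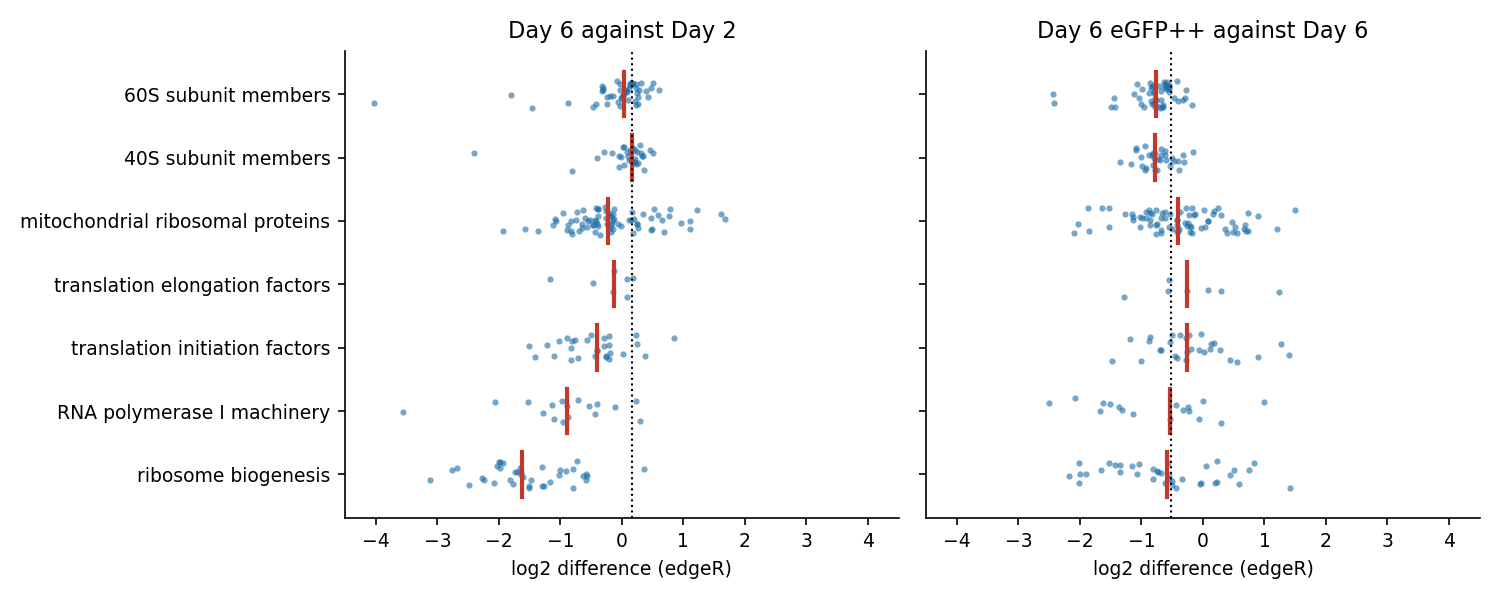
Log2 differences of single genes (points, edgeR) for the 60S and 40S members and 5 other lists, for Day 6 against Day 2 (left) and Day 6 eGFP++ against Day 6 (right); red bars are list medians and the dotted line is the median of all tested genes, with 4 and 3 members beyond the axis not drawn. On Day 6 against Day 2 the ribosome biogenesis list is centred on -1.62 while the 60S and 40S members lie near 0, at 0.03 and 0.17.

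Some ribosomal protein genes carry names outside the rule. Among these are Fau, whose product is made as a fusion to a ubiquitin-like protein, and Gnb2l1, the scaffold protein RACK1. Fau had 1718 and 934 CPM in eGFP++ cells, 2010 and 2216 CPM on Day 6, and 1550.5 and 1506 CPM on Day 2. Gnb2l1 had 3024 and 1647 CPM in eGFP++ cells, 3238 and 2500 CPM on Day 6, and 3390 and 2857 CPM on Day 2. Neither passed the test in either comparison.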

How the data were processed

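Read counts per gene and cell were deposited by the authors, with TopHat2 2.1.1, HTSeq 0.6.1 and the mm10 build named in the submitters' processing notes. The 35 plate tables hold 24092 rows, of which 92 are spike-ins, 5 are summary rows and 27 are not written alike in all tables, and the last 3 kinds were left out of gene totals. Of all reads, 7.49% were in no feature, 25.4% did not align uniquely and 6.16% were spike-ins. A table of 40 columns matched no sample and was used in no step. Wells with fewer than 500 detected genes were left out.

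Counts were summed per group and experiment, and 12 sums were fitted with edgeR 4.0.16 (quasi-likelihood, TMM, filterByExpr, group plus experiment, limma 3.58.1, R 4.3.3). Benjamini-Hochberg adjustment ran over all 16080 tested genes with a threshold of 0.05. The eGFP+ plate stayed outside. The p-values measure the spread between sums of 2 experiments, with 5 residual degrees of freedom and a common dispersion of 1.12. Counting intervals are Wilson 95%, and they and the limits for a count of 0 (3 reads) cover counting error only. The share of member reads got no test. The fit was tested on simulated data, where it called few of the changed genes unless the change was very large, so missing the threshold does not show that a gene is unchanged. Experiment is the block that pairs groups, as the labels give it: deviations of same-experiment sums correlated between 0.0326 and 0.143 over 15 group pairs (median 0.103).

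Named genes are the 5 most abundant members, the 5 with the smallest p in each direction for Day 6 against Day 2 and up to 3 in each for eGFP++ against Day 6 (sign shared by the experiments, and a mean of 20 CPM or more in the higher group), the copies and the genes they copy, the stalk genes with Rpsa, Fau and Gnb2l1, and the 2 with the smallest p per list. Members named beyond that as having the lowest counts, or as called by another fit or not overlapping between plates, were singled out after their values were seen. Some genes that these rules name are not reported here. The members, lists and tests were chosen with earlier results of these data known. Positions and transcripts are from GENCODE M21 (GRCm38) and promoter windows from RefSeq (GRCm38.p6). Copies were aligned with Biopython 1.88. Alternatives were DESeq2 1.42.0, no TMM, spike-in or non-member library sizes, other cell and gene filters, equal weight per cell, plates as units, no experiment term and leaving out each sum. Tables and figures were made in Python 3.11.15 with scipy 1.17.1 (numpy 2.4.6), pandas 2.3.3 and, for plots, matplotlib 3.10.9.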

Additional observations from a re-analysis of the deposited data

Results flagged for a closer look

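The Day 6 eGFP+ plate, which no comparison uses, gave a member share of 38.1%, above both Day 6 sums at 29.4% and 31.9% and above every other sum. It is 1 plate of 83 cells in 1 experiment, and plate and sort cannot be told apart in it. No plate stood far from the other plates of its group in member share by Dixon's test, which was run for the groups of 4 or 5 plates; the nearest was a Day 3 plate of the main experiment at 24.9%, with a ratio of 0.696 against a critical value of 0.71.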

How the results depend on the processing

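For Day 6 against Day 2, 1 member was called in the reported fit. The count was 7 with 1 sum per plate (19.8% of all genes called), 2 with cells weighted equally (6.99%), 2 with DESeq2 (12.7%), 2 with only the groups compared (3.62%) and 77 with the spike-in reads as library size (13.3%). Leaving out each of the 4 sums gave 0 to 0. For eGFP++ against Day 6 the reported 0 became 10 per plate (1.57%), 1 with DESeq2 (3.26%), and 0 to 2 when each sum was left out, where a lone sum is taken to vary like the other groups. Over Days 2 to 6 the reported 0 became 4 per plate (17.7%), 1 with cells weighted equally (4.54%), 1 with DESeq2 (5.34%) and 3 with spike-in library sizes (1.94%). It was 0 to 0 when each of the 10 sums of these days was left out, and 1, Rps4l, without the main (0.352%) or the pilot (0.362%) eGFP++ sum. Adjacent days gave 0 in all alternatives run. Without the replicate block of experiment, 1 member was called for Day 6 against Day 2 and 0 in the other comparisons, so pairing changed no such count; for eGFP++ against Day 6, 13 members then had an unadjusted p under 0.05 (5.14% of all genes) in place of 31. Rps4l kept its call in all 12 alternatives other than leaving out a sum, with adjusted p between 9.27e-08 and 0.0317.

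Some directions depended on the scaling. The log2 ratio of the member share, Day 6 over Day 2, was -0.02 in the main experiment, -0.22 with spike-in reads in the denominator and -2.61 per spike-in read; in the pilot it was 0.26 and turned to -1.62 per spike-in read. For eGFP++ over Day 6 in the main experiment it was -0.20 and turned to 0.26 per spike-in read. In the pilot that ratio was -1.24, and between -1.34 and -0.64 in all 9 alternatives run. With spike-in library sizes the Day 6 against Day 2 differences of Rpl31, Rps19 and Rpl41 turned to -1.62, -1.74 and -1.76, and Rpl41 ranged between -0.16 (without the pilot Day 6 sum) and 1.01 when sums were left out. The cause was not tested. Of 256 values of single members, 231 kept their direction and side of the threshold. The fit that took library sizes from non-members, and the fit without the Day 3 plate with the fewest detected genes, were chosen after seeing the data.

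The median standard error of a member's log2 difference was 0.338 for Day 6 against Day 2 and 0.341 for eGFP++ against Day 6, with 2 sums a group. Reads without molecular identifiers are not independent molecules, and reads that align to several places were not counted.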
